A study of Mus musculus with 6 samples.

Results

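The SLC25 genes encode the mitochondrial carrier family, and 44 of them were measured here in whole liver of Lmln-KO and wild-type (WT) mice. They are the rows of the count table named Slc25a followed by a number whose counts summed to at least 10 over the 6 libraries. That choice kept 44 of the 47 rows so named, among 55367 gene names in all. The count sum was the only measured value used in the choice. Just inside it stood Slc25a43 with 11 counts. Just outside stood Slc25a41 with 4 and Slc25a31 with 3, and Slc25a54 had 0. Of the members, 43 had enough counts to be tested for a difference, and Slc25a43 had not.

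Carriers of this family sit in the inner mitochondrial membrane and exchange metabolites, nucleotides, phosphate and cofactors between the matrix and the cytosol. They are made in the cytosol and inserted by the TOM and TIM22 import machinery. In liver they link the matrix steps of the urea cycle, gluconeogenesis, lipogenesis and fatty acid oxidation to those outside it.

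The Lmln-KO group consisted of 3 livers of C57BL/6J mice homozygous for a disrupted Lmln gene (genotype Lmln-/-), which encodes the metalloprotease invadolysin. Replicates 1 and 2 were 46 weeks old and replicate 3 was 39 weeks old. The WT group consisted of 3 livers of wild-type C57BL/6J mice, all 46 weeks old. The labels give no sex, treatment or diet, do not say how the allele was made, and do not state that each library came from its own animal, so p-values measure the spread between these libraries. Counts summed to between 20957895 and 22494696 in the Lmln-KO libraries and between 17388360 and 18272045 in the WT libraries.

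Lmln itself measured 0.192, 0.566 and 0.0854 CPM (counts scaled to normalized library size) in Lmln-KO replicates 1, 2 and 3, against 4.68, 4.27 and 2.24 CPM in WT replicates 1, 2 and 3. The groups did not overlap. The log2 fold change of Lmln was -3.72, with an unadjusted p of 0.000228 and an adjusted p of 0.933 in edgeR. With the sex-marker term described below its adjusted p was 0.16 in edgeR. The main test thus did not call the disrupted gene itself, while DESeq2 did (adjusted p 2.3e-06). Xist, the RNA of the inactive X chromosome, was abundant in Lmln-KO replicate 3 and WT replicates 2 and 3 (1875 to 1943 CPM). Instead, 4 Y-linked genes summed to 216 and 235 CPM in the other Lmln-KO libraries and to 230 CPM in WT replicate 1. These sets are called the Xist libraries and the Y-marked libraries here. This difference is uneven between the genotypes, so values of the members with the lowest p are also given from a fit with a term for it, called the sex-marker term. In either set 1 genotype rests on 1 library alone, WT replicate 1 in the Y-marked set and the 39-week-old Lmln-KO replicate 3 in the Xist set. Hepatocyte markers dominated every library: 9 genes including Alb summed to 84193 to 92955 CPM over Lmln-KO livers and 94432 to 107784 CPM in WT. That gap lay in Alb: the other 8 summed to 32229 to 38559 CPM over Lmln-KO livers and 32041 to 36163 CPM in WT, which overlap. The 9 genes had a median log2 fold change of -0.03. Lymphocyte markers, 7 genes, summed to 3.72 to 5.95 CPM over Lmln-KO livers and 7.11 to 43.2 CPM in WT. Kupffer cell and macrophage markers, also 7, summed to 224 to 269 CPM over Lmln-KO livers and 249 to 331 CPM in WT. The sums of stellate, endothelial, cholangiocyte and erythroid markers overlapped between the groups, and Ucp1 of the adipocyte list had 0 counts. The part of cell composition in the results was not tested, and in whole tissue fewer cells of a type and less RNA per cell cannot be told apart.

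Levels differ widely within the family. On a scale that divides reads by exon length and library size (RPKM), 19 members averaged over 10 RPKM across the 6 libraries, 14 lay between 1 and 10 and 11 lay under 1. The 8 most abundant members held 64.1% of the family's summed RPKM. They were Slc25a47 (145 RPKM), Slc25a39 (93.4), Slc25a15 (71.8), Slc25a5 (71.5), Slc25a13 (68.7), Slc25a1 (62.3), Slc25a25 (50.9) and Slc25a10 (50.5), each as a mean of 6 libraries. All of these except Slc25a47 serve a named substrate, from glutathione and ornithine to citrate and adenine nucleotides.

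**Figure D1:**
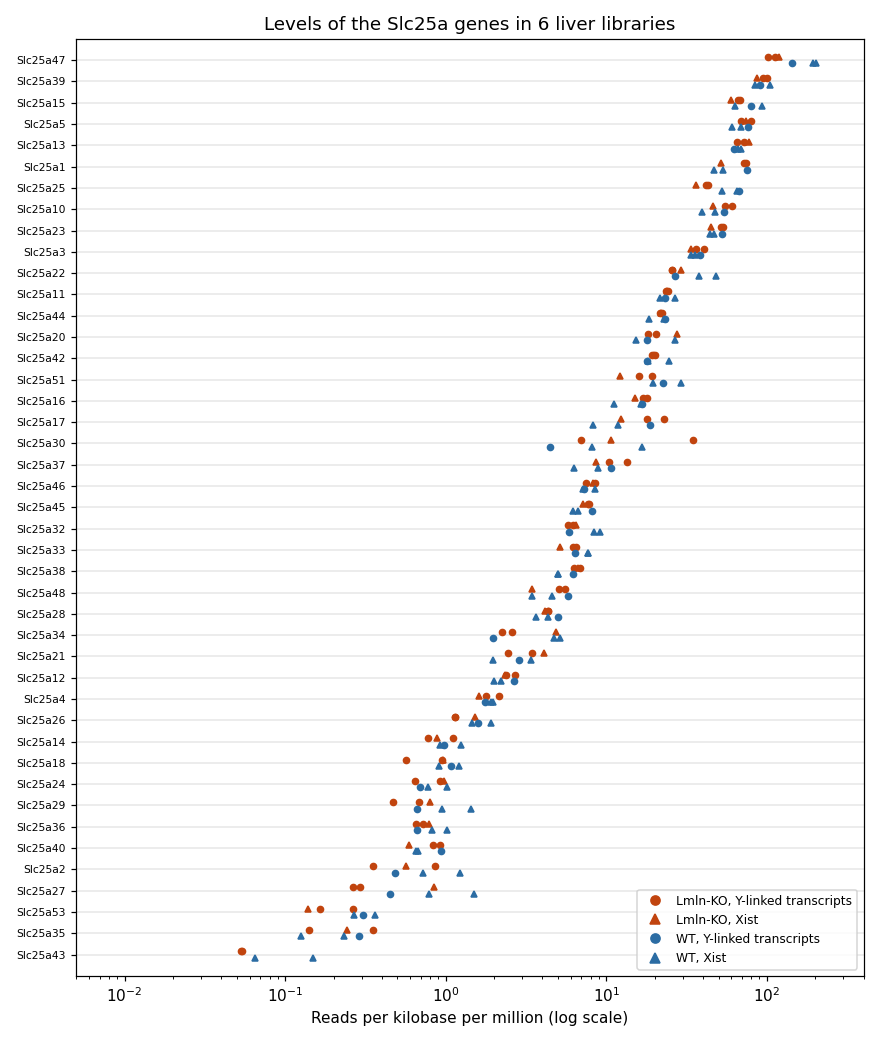
Level of 43 of the 44 Slc25a genes in each of 6 liver libraries, in RPKM on a log scale, ordered by the mean, with Lmln-KO above WT in each row. Circles are Y-marked libraries and triangles Xist libraries, and libraries at 0 (for Slc25a43 only) are not drawn. Slc25a47 is highest, with means of 111 RPKM in Lmln-KO and 179 RPKM in WT, and its groups do not overlap.

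The comparison of genotypes asked whether carrier transcripts differ when Lmln is disrupted. The quasi-likelihood test of edgeR called no member at an adjusted p under 0.05, and 0% of the 18703 tested genes. With the sex-marker term it again called no member, and 0.00535% of genes. Slc25a47, a carrier with high expression in liver, and Slc25a25, a calcium-regulated ATP-magnesium/phosphate carrier, had the lowest p of the family and were lower in every Lmln-KO library than in any WT library. Slc25a51, the NAD carrier, was also lower without overlap. The family as a whole was centred near 0: the median log2 fold change of the 43 tested members was 0.03, against -0.004 over all tested genes, and 23 members lay within 0.2 of 0.

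Unadjusted p-values under 0.05 occurred in 5 of 43 members (11.6%), against 4.66% of all tested genes. All 5 were lower in Lmln-KO, the direction of 3.14% of all genes, and 0 members were higher at that p, against 1.52% of all genes. With the sex-marker term 4 members (9.3%) had such a p, against 4.34% of all genes, and all were lower, against 2.65%. DESeq2 called 1 member, Slc25a47, among 0.128% of genes called, and with the sex-marker term 2 members, Slc25a47 and Slc25a25, among 0.166%. Limma-voom called 0 members and 0% of genes. The groups did not overlap for 5 members (11.6%), a share near the 10.3% of all tested genes: Slc25a25, Slc25a47, Slc25a51 and Slc25a53 lay lower in Lmln-KO (5.73% of all genes) and Slc25a38 lay higher (4.61%).

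**Figure D2:**
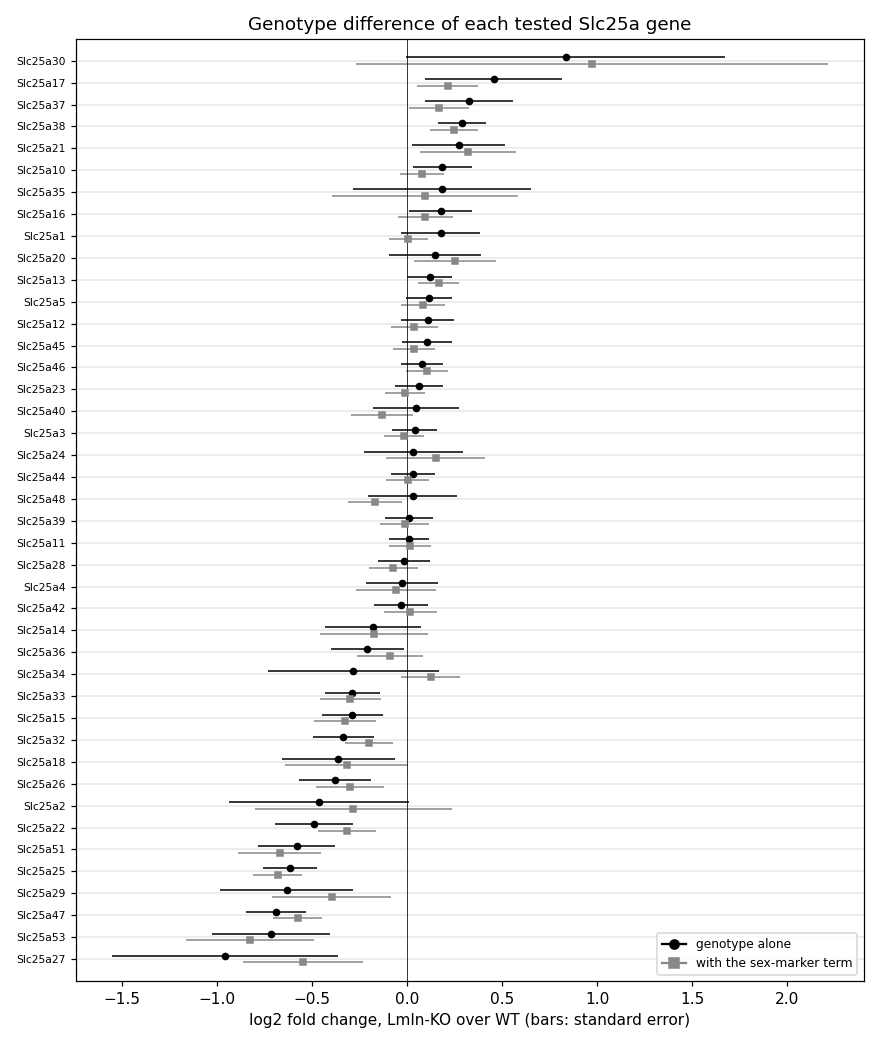
log2 fold change, Lmln-KO over WT, of 42 of the 43 tested Slc25a genes, with bars for the standard error. Black circles are from the fit on genotype alone and grey squares from the fit with the sex-marker term. Slc25a47, Slc25a25 and Slc25a51 stand at -0.69, -0.62 and -0.58, and none of these 42 genes has an edgeR adjusted p under 0.05 in either fit.

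Slc25a47 (chromosome 12, 108836046 to 108856815, plus strand, GRCm38), a carrier known for its strong expression in liver and without a settled substrate, was the most abundant member. It measured 337, 304 and 355 CPM in Lmln-KO replicates 1, 2 and 3, against 431, 600.4 and 575 CPM in WT replicates 1, 2 and 3. Every Lmln-KO library lay below every WT library, and WT replicate 1 was the lowest of its group. The means were 332 ± 26.2 CPM over Lmln-KO livers and 535 ± 91.3 CPM in WT (SD, n = 3). The log2 fold change was -0.69 (SE 0.159), a level 38.0% lower in Lmln-KO, with an unadjusted edgeR p of 0.00241 that ranked 26 among all tested genes and an adjusted p of 0.933. The fit with the sex-marker term gave -0.58 (SE 0.13, adjusted p 0.809 in edgeR). DESeq2 gave adjusted p-values of 0.0494 without and 0.0192 with the term. The genotype difference was -0.43 on the log2 scale within the Y-marked set and -0.73 within the Xist set. Of the 9 hepatocyte markers, Alb lay lower without overlap (45634 to 60727 CPM over Lmln-KO livers, 62391 to 74195 CPM in WT), Apob lay higher without overlap (19367 to 20014 CPM over Lmln-KO livers, 16259 to 19151 CPM in WT), and the other 7 overlapped.

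Slc25a25 (chromosome 2, 32414487 to 32451445, minus strand, GRCm38) exchanges ATP-magnesium for phosphate and so adjusts the adenine nucleotide pool of the matrix. It measured 327, 336 and 285 CPM in Lmln-KO replicates 1, 2 and 3, against 526, 415 and 512 CPM in WT replicates 1, 2 and 3. The Lmln-KO libraries again all lay lower, here with the lowest value in the 39-week-old replicate 3. The means were 316 ± 27.0 CPM over Lmln-KO livers and 484 ± 60.9 CPM in WT (SD, n = 3). This is a log2 fold change of -0.62 (SE 0.142), or 34.7% lower, with an unadjusted edgeR p of 0.00245 and an adjusted p of 0.933. Adding the sex-marker term gave -0.68 (SE 0.128, adjusted p 0.584 in edgeR). DESeq2 gave adjusted p-values of 0.0555 without and 0.00148 with the term. The genotype difference was of like size within each set, -0.67 in the Y-marked one and -0.69 in the Xist one. Naif1 overlaps Slc25a25 on the other strand, with 783 counts in all against 46216.

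Both genes have RefSeq promoter windows of 300 bases (250 before and 50 after an annotated start, GRCm38.p6), shown here because the 2 transcripts were lower together. The window of Slc25a25 at chr2:32424017-32424316 (minus strand) belongs to a start inside the gene, 1 of 3 listed, and holds the full cAMP response element TGACGTCA, in capitals, with its first base 150 bases before the start. The window of Slc25a47 at chr12:108850879-108851178 (plus strand) also lies inside the gene as counted and holds none of the motifs searched.
Slc25a25: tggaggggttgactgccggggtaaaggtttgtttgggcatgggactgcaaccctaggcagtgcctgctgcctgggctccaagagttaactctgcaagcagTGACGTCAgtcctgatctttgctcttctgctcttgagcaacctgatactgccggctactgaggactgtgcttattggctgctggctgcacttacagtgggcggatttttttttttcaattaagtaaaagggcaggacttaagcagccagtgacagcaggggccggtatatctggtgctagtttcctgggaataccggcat
Slc25a47: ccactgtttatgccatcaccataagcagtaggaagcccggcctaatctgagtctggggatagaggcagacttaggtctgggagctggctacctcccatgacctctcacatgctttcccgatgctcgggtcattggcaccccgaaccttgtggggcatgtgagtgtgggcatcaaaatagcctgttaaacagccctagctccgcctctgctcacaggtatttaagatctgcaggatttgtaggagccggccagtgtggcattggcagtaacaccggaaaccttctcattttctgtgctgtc
The searched motifs, on both strands, were TGACGTCA, the E-box CACGTG and AGGTCA repeated directly with 1 base between. Of these, only TGACGTCA is in the Slc25a25 window shown. Of 32851 RefSeq windows, 588 (1.79%) hold TGACGTCA, and of 44 windows of 34 matched members 2 do, those of Slc25a25 and Slc25a36. The E-box is in 7.15% of all windows and in 7 member windows (15.9%), of which 2 overlapping windows of Slc25a14 hold the same site. The direct repeat is in 0.0396% of all windows and in 0 member windows. Gene-level counts do not tell which start the reads came from, and a match of letters is no measure of binding.

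**Figure D3:**
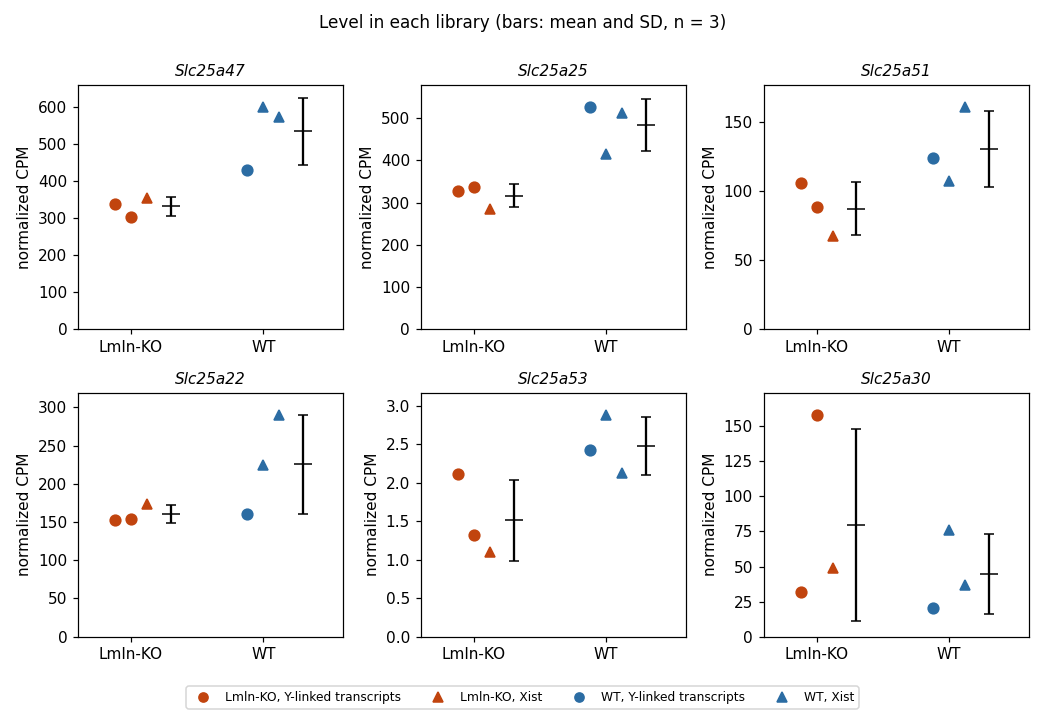
Normalized CPM of 6 Slc25a genes in each library, Lmln-KO left of WT, with bars for the mean and SD of 3 libraries. Circles are Y-marked and triangles Xist libraries. Slc25a47, Slc25a25, Slc25a51 and Slc25a53 show no overlap of the groups, WT replicate 1 of Slc25a22 (161 CPM) lies inside the Lmln-KO range, and Slc25a30 ranges from 20.5 to 158 CPM.

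Slc25a51 (chromosome 4, 45395923 to 45408766, GRCm38) imports NAD into mitochondria. It measured 106, 88.2 and 67.3 CPM in Lmln-KO replicates 1, 2 and 3, against 124, 107 and 161 CPM in WT replicates 1, 2 and 3. Lmln-KO replicate 1 and WT replicate 2 were almost level, and the groups were parted by that narrow gap. The log2 fold change was -0.58 (SE 0.204, unadjusted p 0.0221, adjusted p 0.933 in edgeR), and -0.67 (SE 0.219) with the sex-marker term. Leaving out WT replicate 3 gave -0.41, and leaving out Lmln-KO replicate 3 gave -0.42. In the fit with the term, the value was -0.35 without Lmln-KO replicate 3 (unadjusted edgeR p 0.218) and -0.99 without WT replicate 1. The genotype difference was -0.36 within the Y-marked set and -0.96 within the Xist set.

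Slc25a22 (chromosome 7, 141429744 to 141437892, GRCm38) carries glutamate into the matrix. It measured 153, 154 and 174 CPM in Lmln-KO replicates 1, 2 and 3, against 161, 225 and 290.1 CPM in WT replicates 1, 2 and 3. The WT libraries with Xist were the high ones, and WT replicate 1 lay among the Lmln-KO values. The log2 fold change was -0.49 (SE 0.204, unadjusted p 0.0425, adjusted p 0.933 in edgeR). It was -0.32 with the sex-marker term and -0.27 without WT replicate 3, with -0.07 within the Y-marked set and -0.55 within the Xist set.

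Slc25a53 (chromosome X, 136981116 to 137038302, GRCm38), a member without a known substrate, was among the least abundant. It measured 2.11, 1.32 and 1.11 CPM in Lmln-KO replicates 1, 2 and 3, against 2.43, 2.88 and 2.13 CPM in WT replicates 1, 2 and 3. Lmln-KO replicate 1 and WT replicate 3 were almost equal. These values rest on 26 to 44 counts per Lmln-KO library and 37 to 54 per WT library. The log2 fold change was -0.72 (SE 0.311, unadjusted p 0.0498, adjusted p 0.933 in edgeR) and -0.83 (SE 0.337) with the sex-marker term, and it was -1.02 without Lmln-KO replicate 1 and -0.53 without Lmln-KO replicate 3. With the term it ran from -1.18 to -0.50 when each library was left out.

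All 44 members summed to 3597 ± 191 CPM in Lmln-KO (3416 to 3796) and 3999 ± 85.7 CPM in WT (3945 to 4097; SD, n = 3), without overlap. Slc25a25 and Slc25a47 together summed to 648 ± 13.6 CPM over Lmln-KO livers and 1020 ± 65.1 CPM in WT. The other 42 members summed to 2949 ± 193 CPM over Lmln-KO livers and 2979 ± 42.7 CPM in WT, a difference smaller than the SD of either group. Slc25a25 and Slc25a47 were set apart because they were lower in Lmln-KO, so the remaining sum is nearer to level by construction, and this split is a description only.

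Among the other adenine nucleotide carriers the groups overlapped. Slc25a5, the ADP/ATP translocase that supplies the cytosol of most tissues with ATP, measured 113, 132 and 123 CPM in Lmln-KO replicates 1, 2 and 3, against 125, 114 and 100.2 CPM in WT replicates 1, 2 and 3, a log2 fold change of 0.11 (SE 0.12). Slc25a4, the translocase isoform of heart and muscle, stood at 1.85 ± 0.272 RPKM in Lmln-KO and 1.88 ± 0.107 RPKM in WT (SD, n = 3), far below the 74.3 ± 5.66 and 68.7 ± 7.52 RPKM of Slc25a5 in the same groups. Slc25a23, the other ATP-magnesium/phosphate carrier abundant in these livers, measured 50.1 ± 4.73 RPKM in Lmln-KO and 47.9 ± 4.33 RPKM in WT, so the lower level of Slc25a25 was not seen in it (log2 fold changes 0.06 and -0.62; the difference between the genes was not tested). Slc25a24, a further paralog of this kind, averaged 0.848 ± 0.18 RPKM in Lmln-KO and 0.83 ± 0.171 RPKM in WT.

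Carriers of other nucleotides, coenzyme A and cofactors comprised 8 members, of which 1, Slc25a51, had an unadjusted p under 0.05. Slc25a42, the mitochondrial coenzyme A carrier, was the most abundant at 121, 116 and 119 CPM in Lmln-KO replicates 1, 2 and 3, against 107, 148 and 108 CPM in WT replicates 1, 2 and 3. Only WT replicate 2 stood apart, and the log2 fold change was -0.03 (SE 0.143). Slc25a17, a carrier of the peroxisomal membrane, had 17.8 ± 5.27 RPKM in Lmln-KO and 13.0 ± 5.38 RPKM in WT (SD, n = 3). Its 3 high libraries were the Y-marked ones, 51.2 and 65.4 CPM in Lmln-KO replicates 1 and 2 and 53.7 CPM in WT replicate 1, against 35.4 CPM in the remaining Lmln-KO library and 33.6 and 23.6 CPM in the remaining WT libraries. Slc25a32, which carries folate or FAD, stood at 6.17 ± 0.358 RPKM in Lmln-KO and 7.78 ± 1.69 RPKM in WT. Slc25a33 and Slc25a36, the pyrimidine nucleotide carriers, had log2 fold changes of -0.29 and -0.21. Slc25a16 had a log2 fold change of 0.18.

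All 4 di- and tricarboxylate carriers had a positive log2 fold change, between 0.009 and 0.27, and none had an unadjusted p under 0.05. Slc25a1 (chromosome 16, 17925223 to 17928219, GRCm38), the citrate carrier that supplies cytosolic acetyl-CoA for lipid synthesis, measured 160.4, 156 and 112 CPM in Lmln-KO replicates 1, 2 and 3, against 163, 115 and 101.7 CPM in WT replicates 1, 2 and 3. The 3 high libraries were the Y-marked ones in either genotype. Its log2 fold change was 0.18 (SE 0.209) by genotype alone and 0.005 (SE 0.102) with the sex-marker term. By genotype alone, leaving out Lmln-KO replicate 3 gave 0.33, and leaving out WT replicate 1 or 3 gave 0.40 or 0.04. Slc25a10, the dicarboxylate carrier, was likewise higher in all 3 Y-marked libraries, and averaged 53.7 ± 7.26 RPKM in Lmln-KO and 47.3 ± 7.43 RPKM in WT (SD, n = 3). Slc25a11, the oxoglutarate/malate carrier of the malate-aspartate shuttle, measured 23.9 ± 0.371 RPKM in Lmln-KO and 23.8 ± 2.64 RPKM in WT, and Rnf167 overlaps it on the other strand. Slc25a21, the oxodicarboxylate carrier, stood lower at 3.31 ± 0.827 RPKM in Lmln-KO and 2.75 ± 0.711 RPKM in WT.

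Amino acid, S-adenosylmethionine and glutathione carriers made up 12 members, 6 with a positive and 6 with a negative log2 fold change. Slc25a39 (chromosome 11, 102402985 to 102407946, GRCm38), needed for glutathione import into mitochondria, measured 262, 275 and 238 CPM in Lmln-KO replicates 1, 2 and 3, against 251, 232 and 287 CPM in WT replicates 1, 2 and 3. The groups overlapped fully, with a log2 fold change of 0.01 (SE 0.127). Slc25a40, its paralog, lay between 0.594 and 0.915 RPKM in Lmln-KO and between 0.651 and 0.94 RPKM in WT. Slc25a15, the ornithine carrier of the urea cycle, measured 386, 372 and 334 CPM in Lmln-KO replicates 1, 2 and 3, against 452, 357 and 524 CPM in WT replicates 1, 2 and 3, and WT replicate 2 lay within the Lmln-KO range (log2 fold change -0.29, SE 0.162). Slc25a13, the aspartate/glutamate carrier citrin, averaged 71.5 ± 6.3 RPKM in Lmln-KO and 65.9 ± 3.25 RPKM in WT (SD, n = 3). Its paralog Slc25a12 averaged 2.47 ± 0.195 RPKM in Lmln-KO and 2.29 ± 0.355 RPKM in WT.

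Slc25a38, the glycine carrier that serves haem synthesis, was the member that lay higher in Lmln-KO without overlap. It measured 6.27, 6.83 and 6.65 RPKM in Lmln-KO replicates 1, 2 and 3, against 6.19, 4.98 and 5.02 RPKM in WT replicates 1, 2 and 3. WT replicate 1 nearly reached the lowest Lmln-KO library, and the log2 fold change of 0.29 (SE 0.127) had an unadjusted edgeR p of 0.0536. Slc25a44, which carries branched-chain amino acids, averaged 21.9 ± 0.421 RPKM in Lmln-KO and 21.5 ± 2.72 RPKM in WT. Slc25a26, the S-adenosylmethionine carrier (log2 fold change -0.38, SE 0.19), and Slc25a18, a glutamate carrier (-0.36, SE 0.297), share exon positions with Lrig1 and Atp6v1e1 on the other strand, so their counts are uncertain. Slc25a29 and Slc25a2, carriers of basic amino acids, reached at most 0.8 and 0.855 RPKM in Lmln-KO and 1.43 and 1.23 RPKM in WT.

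Slc25a3, the phosphate carrier that feeds ATP synthase, measured 202, 225 and 187 CPM in Lmln-KO replicates 1, 2 and 3, against 212, 187 and 198 CPM in WT replicates 1, 2 and 3. No library stood apart, and the log2 fold change was 0.04 (SE 0.118). The iron importers mitoferrin 1 (Slc25a37) and mitoferrin 2 (Slc25a28) measured 10.8 ± 2.43 and 4.28 ± 0.106 RPKM in Lmln-KO and 8.6 ± 2.24 and 4.33 ± 0.674 RPKM in WT (SD, n = 3). Slc25a20, the carnitine/acylcarnitine carrier of fatty acid oxidation, measured 88.1, 98.9 and 133 CPM in Lmln-KO replicates 1, 2 and 3, against 86.9, 129 and 73.7 CPM in WT replicates 1, 2 and 3. Lmln-KO replicate 3 and WT replicate 2 were high, and the log2 fold change of 0.15 (SE 0.241) became -0.04 when Lmln-KO replicate 3 was left out and -0.01 when WT replicate 3 was.

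Slc25a30 (chromosome 14, 75760117 to 75787037, GRCm38), an uncoupling-protein-like carrier first described in kidney, varied most among the tested members. It measured 31.9, 158 and 49.0 CPM in Lmln-KO replicates 1, 2 and 3, against 20.5, 76.3 and 37.2 CPM in WT replicates 1, 2 and 3. The highest library was 7.71-fold above the lowest, a coefficient of variation of 81.6% over the 6 libraries against a median of 18.8% for the tested members and 18.5% for all tested genes. Its log2 fold change of 0.83 (SE 0.838) was -0.14 without Lmln-KO replicate 2. With the replicate number as a block it was 0.70 (unadjusted p 0.00178, adjusted p 0.472 in edgeR). Both genotypes had the same order, replicate 2 highest and replicate 1 lowest. Whether the numbers pair the libraries cannot be told from these data. The related Slc25a27 measured 1.15, 1.04 and 3.32 CPM in Lmln-KO replicates 1, 2 and 3, against 1.78, 3.1 and 5.92 CPM in WT replicates 1, 2 and 3, with the libraries with Xist high in both genotypes. Slc25a14, the third of this kind, averaged 0.925 ± 0.173 RPKM in Lmln-KO and 1.05 ± 0.168 RPKM in WT (SD, n = 3).

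Of the remaining members without a settled substrate, Slc25a46, an outer membrane protein linked to mitochondrial shape, averaged 8.1 ± 0.537 RPKM in Lmln-KO and 7.67 ± 0.778 RPKM in WT (SD, n = 3). Slc25a45 and Slc25a48 had log2 fold changes of 0.10 and 0.03. Slc25a34 measured 5.95, 6.93 and 13.1 CPM in Lmln-KO replicates 1, 2 and 3, against 5.28, 13.7 and 12.6 CPM in WT replicates 1, 2 and 3, with all libraries that have Xist high. Slc25a35 reached at most 0.352 RPKM in Lmln-KO and 0.29 RPKM in WT. Slc25a43 had at most 5 counts in a library and was 0 in Lmln-KO replicate 3 and WT replicate 1.

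**Figure D4:**
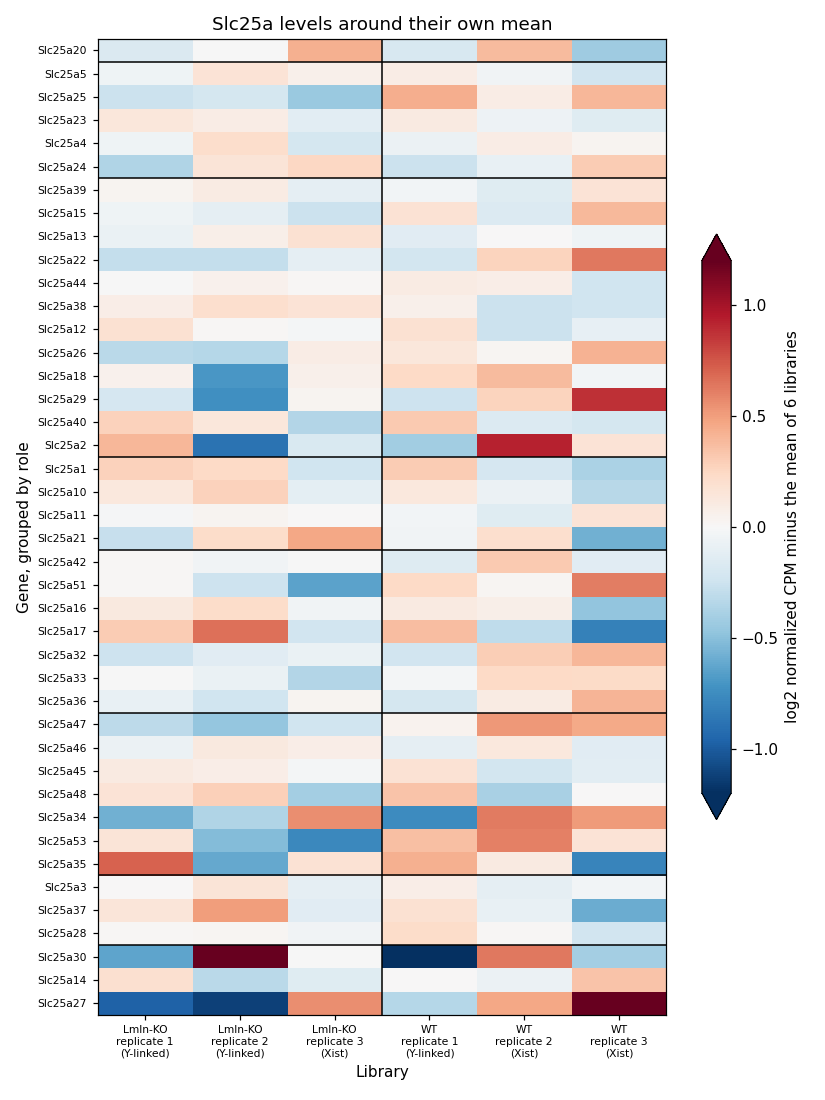
log2 normalized CPM of 42 of the 43 tested Slc25a genes, each minus its mean over 6 libraries, with genes grouped by role (lines between groups) and Lmln-KO libraries left of WT. The label under each library says whether it has Xist or Y-linked transcripts. Slc25a47, Slc25a25 and Slc25a51 follow genotype, Slc25a1, Slc25a17, Slc25a27 and Slc25a34 follow the Xist pattern, and Slc25a30 is highest in Lmln-KO replicate 2.

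The pattern by Xist was common in the family. For 18 of 43 members (41.9%) the libraries with Xist did not overlap the Y-marked ones, against 26.3% of all tested genes. In 12 of these members the libraries with Xist were the lower ones (13.3% of all genes), among them Slc25a1, Slc25a10, Slc25a3, Slc25a17, Slc25a23 and Slc25a37. In 6 they were the higher ones (13% of all genes), namely Slc25a22, Slc25a27, Slc25a29, Slc25a32, Slc25a34 and Slc25a36. The labels do not give this split, so it is described without a test. Slc25a47, Slc25a25, Slc25a51, Slc25a53 and Slc25a38 are not among the 18, which follows from the design. Each set holds libraries of both genotypes, so a gene whose genotype groups do not overlap cannot also part fully by Xist. Their absence does not show that they are free of the Xist pattern.

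**Figure D5:**
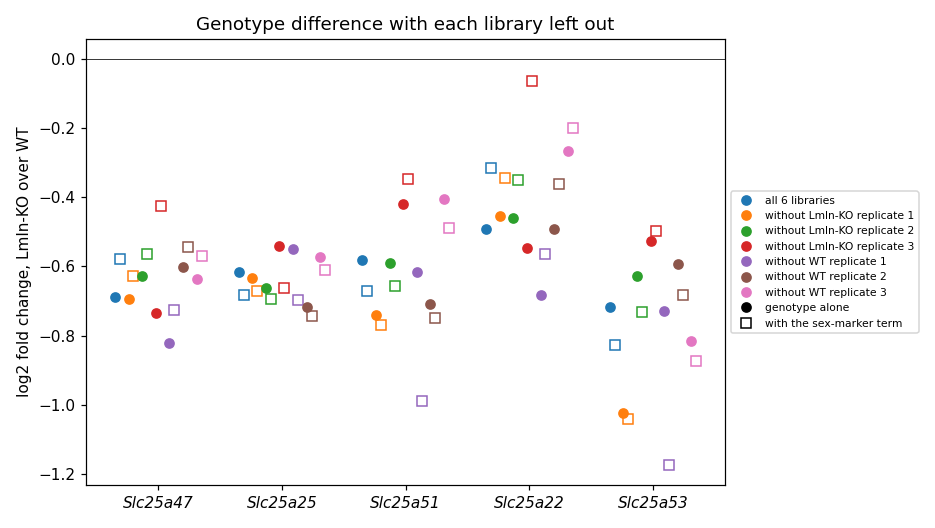
log2 fold change, Lmln-KO over WT, of the 5 members with an unadjusted edgeR p under 0.05, with all 6 libraries and with each library left out. Filled circles are fits on genotype alone and open squares fits with the sex-marker term. Every value shown is below 0, which the choice of members by low p in the same data favours. Slc25a25 runs from -0.72 to -0.54 by genotype alone and from -0.74 to -0.61 with the term, while Slc25a22 reaches -0.06 with the term and without Lmln-KO replicate 3.

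With each library left out in turn, Slc25a47 ran from -0.82 to -0.60 and Slc25a25 from -0.72 to -0.54 on the log2 scale by genotype alone, with unadjusted edgeR p-values of 0.000607 to 0.0125 and 0.00156 to 0.013. With the sex-marker term Slc25a47 ran from -0.72 to -0.42, the smallest difference being without Lmln-KO replicate 3, and its unadjusted p was then 0.0734. Slc25a25 ran from -0.74 to -0.61 with unadjusted p-values of up to 0.0168.

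Other genes of mitochondrial transport, taken from lists that were not part of the family rule, showed no call by genotype in edgeR. That test called 0% of all 18703 tested genes by genotype, so the absence of calls is not particular to these lists. Of the family members with another symbol, Ucp2 measured 28.1 ± 5.7 CPM over Lmln-KO livers and 32.3 ± 11.7 CPM in WT (SD, n = 3). Mtch1 and Mtch2 had log2 fold changes of -0.04 each. Ucp1, the thermogenic uncoupling protein, had 0 counts, and Ucp3 had 7 in all. Of 13 genes of the import route for carriers, 0 passed in either direction in edgeR. The median log2 fold change was 0.12, and 0.04 with the sex-marker term. In Lmln-KO 2 of them, Timm29 and Timm22, lay higher without overlap, as did 4.61% of all tested genes, and 0 lay lower. Timm22 had a log2 fold change of 0.27 (SE 0.157). Timm29, a subunit of the TIM22 complex, measured 45.6 ± 1.3 CPM over Lmln-KO livers and 38.5 ± 4.29 CPM in WT, without overlap and with a log2 fold change of 0.25 (SE 0.108, unadjusted p 0.0522). Of 19 tested genes of other inner membrane transporters, which include the mitochondrial pyruvate carrier, sideroflexins and the calcium uniporter, 0 passed, and the median was 0.06. The 4 outer membrane genes, among them Vdac1, had a median of 0.08.

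Of 25 enzymes that work with the carriers, edgeR called 0 by genotype, as it called 0% of all tested genes. Among the enzymes 10 had a positive and 15 a negative log2 fold change, and the median was -0.05. The log2 fold changes ran from -1.27 (Got1) to 0.67. Got1 measured 558 CPM in WT replicate 3, against 82.8 to 158 CPM in the other libraries. Cps1, Ass1, Asl and Arg1 were also highest in WT replicate 3. Acly, the cytosolic enzyme that splits the citrate exported by Slc25a1, measured 406, 422 and 282 CPM in Lmln-KO replicates 1, 2 and 3, against 637, 336 and 341 CPM in WT replicates 1, 2 and 3. WT replicate 1 was far above the rest, and the Lmln-KO values spanned those of the other WT libraries. The log2 fold change was -0.24 (SE 0.288) by genotype alone and -0.44 (unadjusted p 0.0066) with the sex-marker term, against 0.13 by genotype alone without WT replicate 1.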

How the data were processed

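Whole-liver RNA of 3 Lmln-KO and 3 WT libraries was sequenced as paired reads of 36 bases after ribosomal RNA depletion with a directional kit, per the labels. Raw read counts per gene name were deposited, made with featureCounts 2.0.1 over exons of an Ensembl annotation of GRCm38, per the file headers. The command line sets no paired-end, strand, multi-mapping or overlap option, so antisense partners cannot be told apart. The submitters' processing notes name Subread 2.0.2 and edgeR 3.36.0. Which program aligned the reads is not stated there.

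The test was edgeR 4.0.16 (R 4.3.3) with TMM scaling, the filterByExpr filter at a minimum count of 10, leaving 18703 genes, a robust quasi-likelihood fit, and Benjamini-Hochberg adjustment over all tested genes at 0.05. Each SE is the size of the log2 fold change over the square root of F. CPM and RPKM use TMM library sizes and the exon lengths deposited by the authors. Differences within library sets are of log2 CPM with a prior count of 2. Alternatives used DESeq2 1.42.0 and limma 3.58.1. The steps were tested on simulated counts. There the fit on genotype alone called 29.3% of 2-fold and 80.4% of 4-fold differences, with 4 false calls. The fit with the sex-marker term called 63.3% and 85.1%, with 33 false calls. These were a larger share of its calls than the adjusted p threshold of 0.05 is set to hold, so calls with the term need caution. Only the edgeR fits were simulated. The 5 members with an unadjusted edgeR p under 0.05 by genotype alone differed by less than 2-fold in that fit. In the measured counts neither edgeR fit called Lmln, whose log2 fold change was -3.72 by genotype alone. Every pair of libraries differed beyond counting noise, with a chi-square over its degrees of freedom of 12.2 or more. Full values are given for members with an unadjusted p under 0.05 in either fit and for the most abundant member of each role list. Slc25a38, Slc25a15, Slc25a17, Slc25a27 and Slc25a34 were added after their values were seen. The members, the lists and the sex-marker term were chosen with earlier results of these data known. Of the members, 1 counts in the totals and is not reported here on its own.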

Additional observations from a re-analysis of the deposited data

How the results depend on the processing

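Over 14 alternatives, the count of called members stayed 0 by genotype except with DESeq2 (1). With the sex-marker term it was 0 except with DESeq2 (2) and with no filter on low counts (1, Slc25a25, edgeR adjusted p 0.00595). Calls over all genes, 0 in the fit as reported (871 at an unadjusted p under 0.05), were 24 with DESeq2, 3 with no filter, 1 with the sex-marker term, 1 with the replicate block, and 0 to 3 with each library left out (3 without WT replicate 1). Leaving out each library gave 0 called members in both fits. The members' median log2 fold change was then between -0.030 and 0.046, and below 0 without Lmln-KO replicate 1 (-0.019), Lmln-KO replicate 2 (-0.030), WT replicate 2 (-0.015) or WT replicate 3 (-0.030), and it was -0.013 with the sex-marker term. Deviations from the group means correlated at 0.46, -0.31 and 0.41 for replicate numbers 1, 2 and 3. Lmln-KO replicate 2 correlated best with WT replicate 1 (0.47). Every pair within the Xist set or within the Y-marked set correlated positively, and every mixed pair negatively. Number 2 joins a Y-marked library to one with Xist, so these correlations cannot tell whether the numbers pair the libraries. With the number as a block, 0 members were called, with or without the sex-marker term, and the members' median was 0.027. Some differences changed sign, among them that of Slc25a30 (0.83 in the fit as reported), and the cause was not tested. With the sex-marker term Slc25a3 was -0.016, Slc25a39 -0.012 and Slc25a42 0.016, and under the stricter filter Slc25a39 was -0.0026. With each library left out, Slc25a20 ran from -0.039 to 0.41, Slc25a3 from -0.033 to 0.11, Slc25a30 from -0.14 to 1.46, Slc25a39 from -0.059 to 0.10, Slc25a42 from -0.11 to 0.14 and Acly from -0.40 to 0.13. Slc25a47, Slc25a25, Slc25a51, Slc25a22 and Slc25a53 kept a negative sign in every alternative that could be fitted, and Slc25a53 did not pass the stricter filter. These members were chosen for a low p in the same data. All but Slc25a22 have groups that do not overlap, so leaving out a library could hardly reverse them by genotype alone. Their kept sign is therefore a description only.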
